A study of Schizosaccharomyces pombe with 16 samples.

Results

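Respiration in mitochondria passes electrons along a chain of protein complexes and uses the resulting proton gradient to make ATP. In fission yeast (*Schizosaccharomyces pombe*), which has no complex I, electrons enter through NADH dehydrogenases and through complex II, the succinate dehydrogenase that is also an enzyme of the TCA cycle. They pass by ubiquinone to complex III, by cytochrome c to complex IV, which reduces oxygen, and the ATP synthase is driven by the protons pumped on the way. Most subunits are encoded in the nucleus and a few in the mitochondrial genome, and dedicated assembly factors insert haem and copper or hold unassembled subunits. Yeasts ferment when glucose is plentiful, and carbon catabolite repression (CCR) keeps many genes for the use of other carbon sources low under that condition.

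The genes described here are the nuclear genes of these complexes, chosen by name. They are the protein-coding features whose gene name in the supplementary tables of the study is *sdh*, *qcr*, *cox* or *atp* followed directly by a digit, or is *cyc1*, *cyt1* or *rip1*, without features of the mitochondrial genome. The rule found 43 genes among 7019 features, of which 5161 are nuclear and protein-coding by identifier, and all 43 carry the same symbol in the RefSeq annotation of assembly ASM294v3. They comprise 3 genes of complex II, 8 of complex III, the cytochrome c gene *cyc1*, 7 subunits and 7 assembly factors of complex IV, and for the ATP synthase 5 genes of the catalytic F1 part, 8 of the stator and membrane part and 4 assembly factors. The tables were available in shortened form and are sorted by fold change, so that whether a name was found depended in part on the measurement itself: 3689 of the 5161 nuclear protein-coding features have a row in them. A further 10 genes fit the naming pattern only by a symbol or, for *sdh4* (symbol *tim18*), a synonym in the RefSeq table (*atp23*, *sdh4*, *sdh6*, *sdh7*, *sdh8*, *qcr6*, *cox12*, *cox19*, *cox20* and *cox24*), and their values are given apart as the unlisted genes. Counts of changed genes among the 43 therefore describe a list whose membership is not independent of fold change.

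RNA-seq was performed on 16 cultures in YES rich medium at 32 °C. Cells were grown for 4 h in glucose, washed, and sampled 4 h after transfer to the test medium. The methods describe the pre-culture as divided evenly over the media, so libraries of a strain may share a pre-culture. The main fit has no term for this. Wild type cells were studied in glucose-starved medium (3% glycerol), glucose-deficient medium (3% glycerol with 0.1% glucose), 3% sucrose and 3% glucose. The *scr1*- mutants, which lack the CCR repressor Scr1, were studied in sucrose and glucose as a disruption (*scr1*::*ura4*+) and a deletion (*scr1*Δ, *scr1*::*kanMX6*+). Each of these 8 combinations of strain and medium had 2 libraries, and the 4 mutant libraries of a medium were treated as 1 group. The disruption strain is labelled as carrying *ura4*, *leu1* and *ade6* alleles that the wild type label does not list, so those alleles and the disruption cannot be told apart. The labels and the study's sample table name different strains, and so different mating types, for some libraries. The methods describe the replicates as independent biological ones, and p-values measure the spread between these libraries.

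Library totals ranged from 14305848 to 18607823 counts. Libraries were made in 3 batches: batch A was unstranded, batches B and C were stranded. Glucose, sucrose and disruption libraries came from A and B, glucose-deficient libraries from A and C, glucose-starved libraries from B and C, and all 4 deletion libraries from C. Within 1 batch, starved could be set against glucose only in B, deficient against glucose only in A, and starved against deficient only in C, each with 1 library a group. The *scr1* feature had between 88.8 and 125 CPM (counts scaled to a common library size by the TMM method of edgeR) in the mutants, against 20.8 to 35.7 CPM in wild type libraries in sucrose and glucose. The count covers the whole annotated gene, and signal inside and outside the altered part was not split, so the mutant labels were not checked by it and the mutant libraries are named as labelled.

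Together the 43 genes took between 0.839% and 1.80% of all counts. For 7 of them the 5 unstranded libraries did not overlap the 11 stranded ones: *atp10* and *atp11* were above them, and *atp14*, *atp17*, *sdh3*, *qcr10* and *cox7* below them. The share of all features that separate in this way was not counted, so the 7 are not read as particular to these genes. An unstranded library counts reads from a gene and from an opposite-strand neighbour together, and 20 of the 43 genes overlap such a neighbour. Of the 7 genes, *atp10*, *atp11* and *qcr10* do, and the other 4 do not. What separates the library types was not tested. The fitted fold changes below carry a term for batch and can for this reason differ from the ratio of the printed CPM.

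Per length, every subunit gene stood above every assembly factor in wild type cells in glucose. In wild type cells in glucose, the 31 subunit genes and *cyc1* had between 98.5 and 535.6 CPM per kilobase with a median of 201 CPM per kilobase, and the 11 assembly factors had between 9.39 and 54.4 CPM per kilobase with a median of 19.8 CPM per kilobase. The order was led by *atp2*, the F1 β subunit, at 439 and 632 CPM per kilobase in the 2 libraries and by *cyc1* at 385 and 564 CPM per kilobase. In each of these libraries, from batches A and B, *atp2* was above *cyc1*. In the batch B library *qcr10*, at 630 CPM per kilobase, and *cox7*, at 585 CPM per kilobase, were also above *cyc1*, and in the batch A library both were below it, at 287 and 336 CPM per kilobase. In glucose-starved cells *cyc1* led, with a mean level of 2306 CPM per kilobase. There the separation no longer held, as the assembly factor *cox17*, at a mean level of 263 CPM per kilobase, was above 6 subunit genes, from *cyt1* at 255 CPM per kilobase down to *atp7* at 160 CPM per kilobase.

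A shared promoter feature was looked for in the 250 bases before each annotated gene start of ASM294v3. CCAAT, the sequence bound by the HAP (Php) complex, which in yeasts is known for its role at genes of respiration, was searched on both strands. It occurred upstream of 24 of the 43 genes (55.8%), 19 of them subunit or *cyc1* genes (59.4% of 32), against 1807 of 5113 nuclear protein-coding genes (35.3%). CCCCTC, which resembles stress response elements bound by the activator Rst2, occurred upstream of 0 of the 43 genes and of 1.70% of all genes. In a window that also takes in the 50 bases after the start, it occurred in 3 of the 43 (6.98%) and in 2.11% of all genes, so the order of these shares depends on the window. Stretches of 30 bases around the CCAAT nearest to the gene start are printed below for the complex II genes, *cyc1*, *cyt1*, *cox5* and the *cox11* copies, as examples. Other genes followed individually, among them *cox4*, *atp3*, *atp15* and *qcr8*, also have the motif and are not printed. *cox17*, *rip1* and *cox14*, which rose in glucose-starved medium, have none in the 250 bases. Each printed stretch is given 5′ to 3′ on the strand of its gene, with CCAAT or its reverse complement ATTGG in capitals.
sdh1 (I:3798472-3798501, minus strand): cttaagagatgcCCAATtaccaaagcttct
sdh2 (I:1895352-1895381, plus strand): atttttctgccgCCAATaaaattgattctg
sdh3 (III:136657-136686, minus strand): ggaaaatatcttCCAATaacatactgcgca
cyc1 (III:1714545-1714574, plus strand): agagctcatgaaCCAATgaaataagggcga
cyt1 (II:2073166-2073195, plus strand): gattcctgtatgCCAATtatcgtcgggaaa
cox5 (III:1357760-1357789, plus strand): ggactcccgaggATTGGcgttggccttctt
cox1101 (I:1270171-1270200, minus strand): gttcATTGGtgaATTGGtgttttgagcagc
cox1102 (I:4906944-4906973, plus strand): gttcATTGGtgaATTGGtgttttgagcagc

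The first base of the motif lay 27, 67 and 26 bases before the ASM294v3 start of *sdh1*, *sdh2* and *sdh3*, and 65 bases before that of *cyc1*. Annotated starts differ between assemblies. At the same coordinates, the stretches of *sdh1*, *sdh3*, *cox5* and the *cox11* copies lie inside the features of the count table (ASM294v2). They are thus upstream only by the ASM294v3 starts, and positions were not converted between assemblies. The stretches of the *cox11* copies are identical and hold the reverse complement more than once. Medians of members with and without the motif lay close together, which was not tested. In glucose-starved against glucose medium the median log2 fold change was 0.64 for the 24 genes with CCAAT and 0.64 for the 19 without it, and in glucose-deficient medium it was 0.71 and 0.69. In glucose-starved medium 19 of the 24 and 10 of the 19 rose. The 24 genes with CCAAT, and those of them that rose, include both *cox11* copies, whose reads cannot be told apart. These matches are descriptions of letters and not of binding.

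The first question was how these genes respond when glucose is removed. In wild type cells in glucose-starved medium, 29 of the 43 genes rose and 1 fell relative to glucose (adjusted p below 0.05, edgeR), with a median log2 fold change of 0.64, or 1.56-fold, while the median over all 6691 features tested was -0.02. The background is high in this comparison: 31.3% of all features tested rose and 31.9% fell. Past a log2 change of 1 in size, 10 genes rose and 1 fell, against 20.7% and 20% of all features. With library totals in place of TMM, which moved the median of all features to -0.39, 13 of the 43 rose and 3 fell, and their median was 0.27. The shares of all features given above are those of the TMM fit. In glucose-deficient medium 25 rose and 1 fell, with a median log2 fold change of 0.70 (1.63-fold), against 10.1% of all features that rose and 8.35% that fell, and 6 genes rose and 0 fell past a log2 change of 1, against 3.87% and 3.71% of all features. The glucose-deficient count rests on single libraries: 11 genes were called without the first and 12 without the second glucose library, 14 without the second glucose-deficient library, and 0 with wild type libraries alone. A set of 21 genes rose in both media, 8 rose in glucose-starved medium and did not pass the test in glucose-deficient medium, and 4 the reverse. The counts of 29, 25 and 21 each hold both *cox1101* and *cox1102*, near-identical copies whose reads cannot be told apart. *cox16* fell in both media, and 9 genes passed the test in neither. Both comparisons use the same glucose libraries. Of the 10 unlisted genes, 1 rose and 3 fell in glucose-starved medium with a median log2 fold change of -0.20, and 0 passed the test in glucose-deficient medium, where their median was 0.14.

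**Figure D1:**
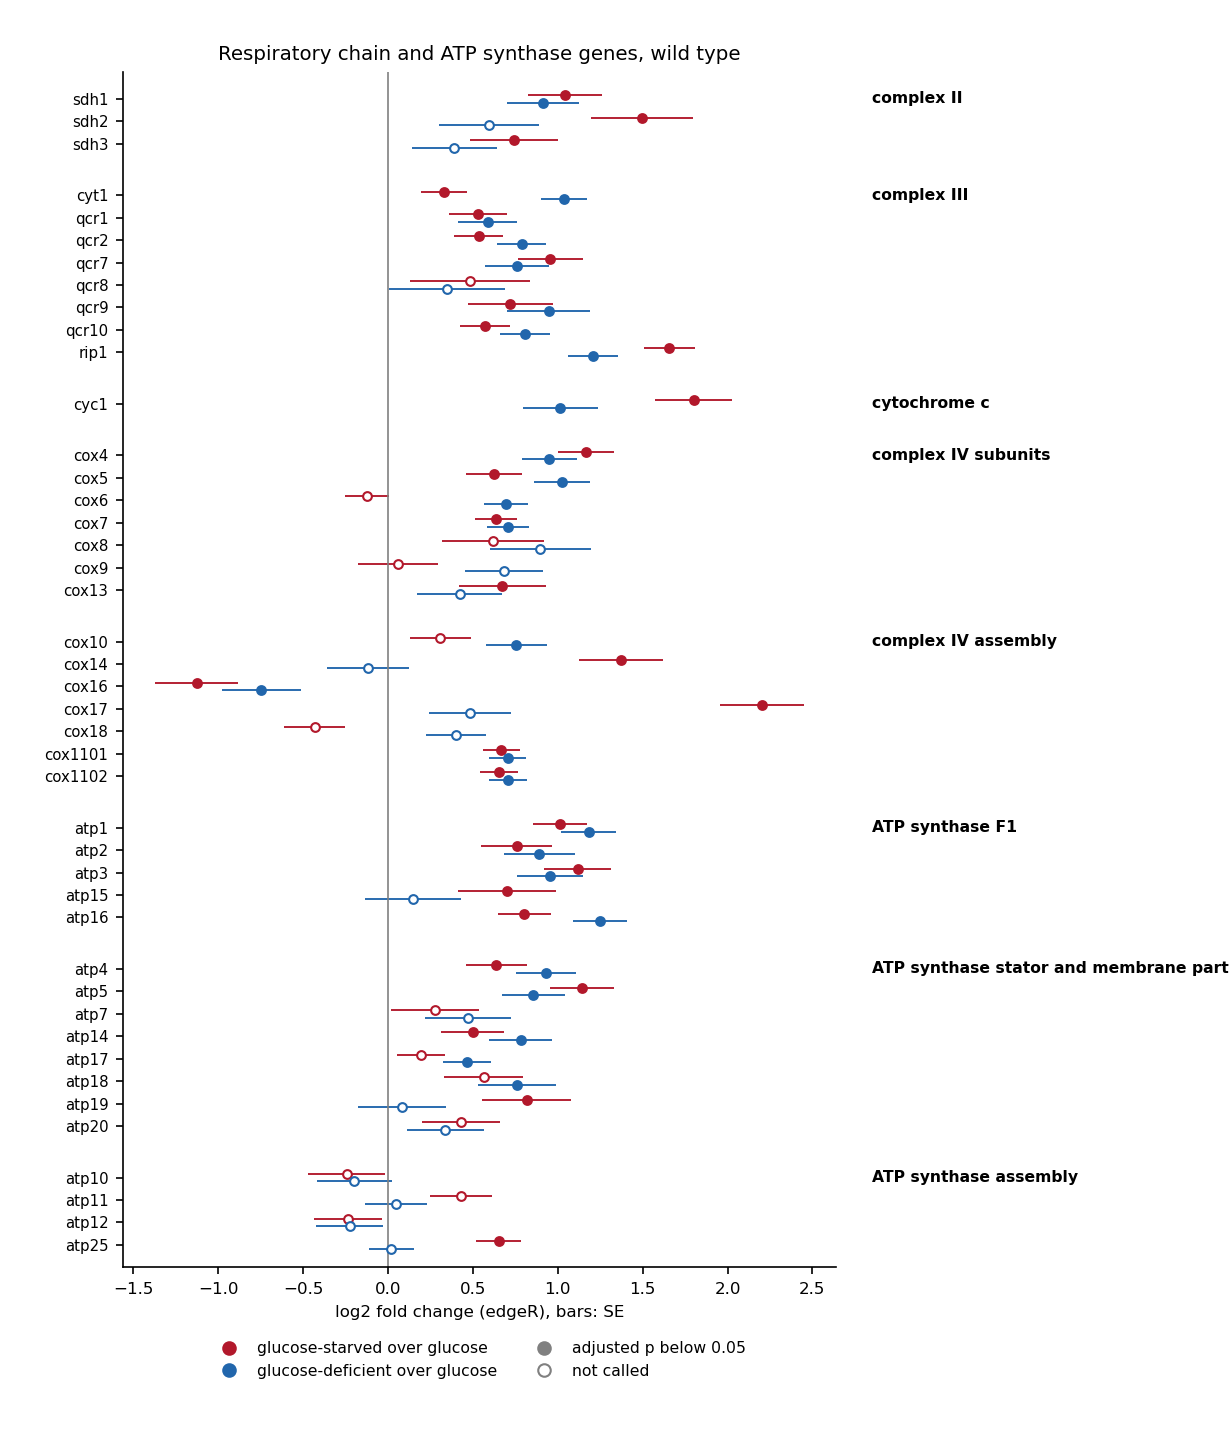
Log2 fold change of each of the 43 genes in wild type cells, glucose-starved over glucose (red) and glucose-deficient over glucose (blue), by role. Bars are standard errors of the edgeR fit and filled points have an adjusted p below 0.05. Subunit genes lie mostly right of 0 in both media, *cox16* is the only gene called lower, and the assembly factors spread from -1.13 to 2.20 in glucose-starved medium.

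Subunit genes and assembly factors gave different counts. Of the 32 subunit and *cyc1* genes, 24 rose and 0 fell in glucose-starved medium and 22 rose and 0 fell in glucose-deficient medium, with median log2 fold changes of 0.66 and 0.79. Of the 11 assembly factors, 5 rose and 1 fell in glucose-starved medium and 3 rose and 1 fell in glucose-deficient medium, with medians of 0.43 and 0.05. The 5 and the 3 each hold both *cox1101* and *cox1102*, which give 1 signal. Of all features 31.3% rose and 31.9% fell in glucose-starved and 10.1% rose and 8.35% fell in glucose-deficient medium. The difference between the 2 kinds of gene was not tested.

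The sums of the 43 genes differed between libraries of a medium, which are from different batches. In the glucose-starved medium the 43 genes summed to 15750 CPM in replicate 1 (batch B) and 22570 CPM in replicate 2 (batch C), against 7228 CPM (batch A) and 9669 CPM (batch B) in glucose. In glucose-deficient medium the sums were 12700 CPM (batch A) and 19570 CPM (batch C). Every library of the glucose-poor media was thus above both glucose libraries. Without the second glucose-starved library the median log2 fold change over glucose was 0.39, while that over all features was -0.05. Within batch B alone, 1 library against 1, the median of the 43 genes was 0.36, with 35 of 43 genes higher. Within batch A the deficient over glucose median was 0.66, with 38 of 43 genes higher. The shares of all features that were higher within a batch were not counted. With the stranded libraries alone, the medians were 0.61 in glucose-starved and 0.76 in glucose-deficient medium.

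**Figure D2:**
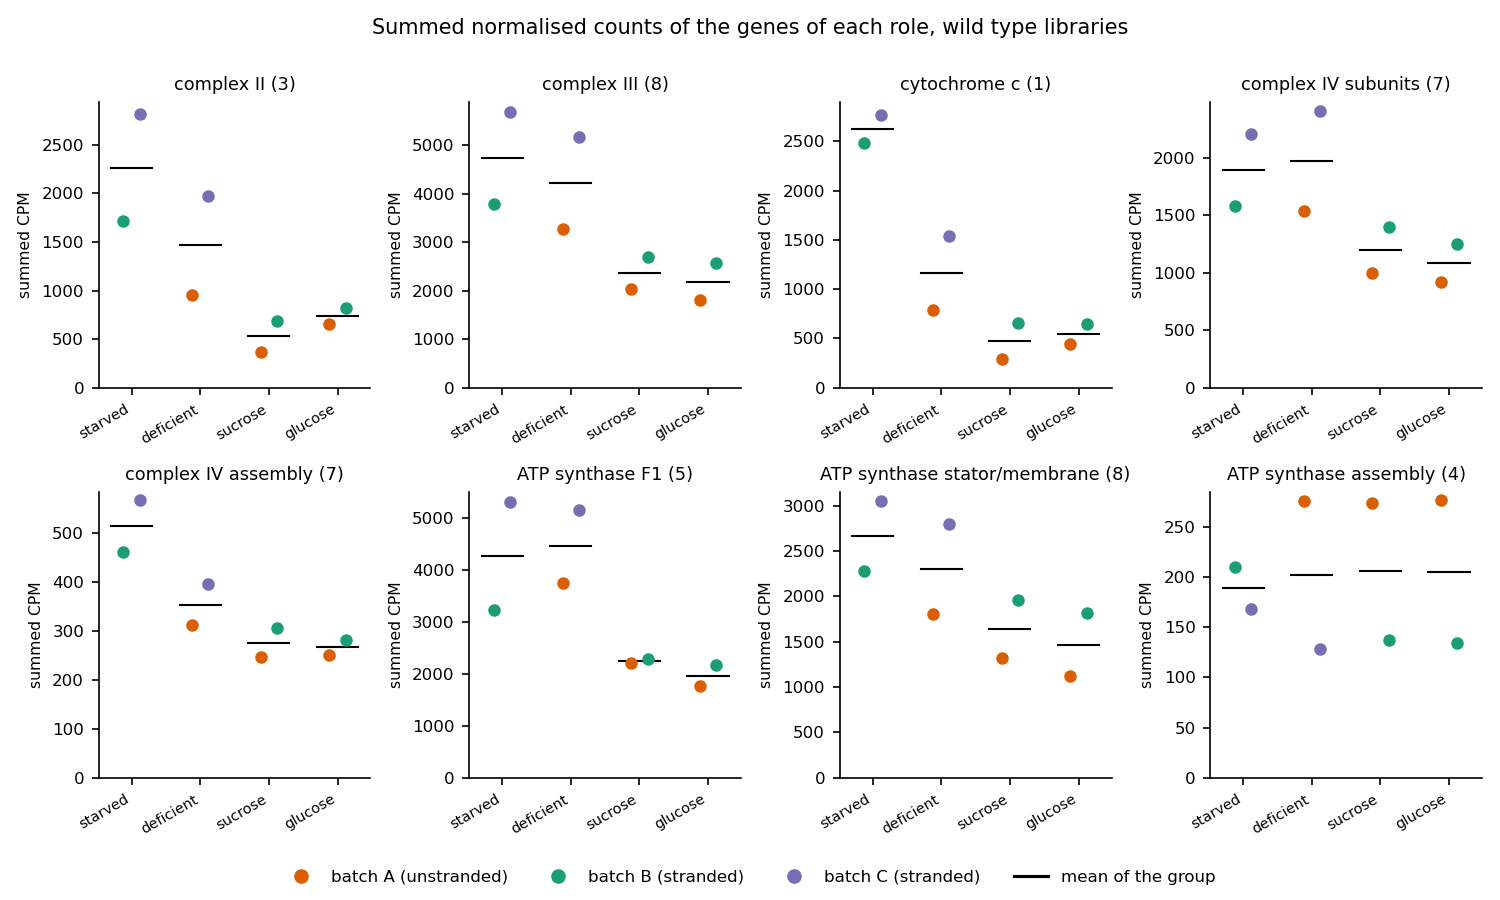
Summed CPM of the genes of each role in the 8 wild type libraries, with the number of genes in parentheses. Points are libraries coloured by batch and lines are group means; complex II and *cyc1* stand out in glucose-starved medium, while the ATP synthase assembly factors follow the batch, with the batch A libraries between 274 and 277 CPM and the others between 128 and 211 CPM.

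Complex II oxidises succinate, with the flavoprotein Sdh1, the iron-sulfur protein Sdh2 and the membrane anchor Sdh3. All 3 genes rose in glucose-starved medium. *sdh2* (SPAC140.01, chromosome I, 1895436 to 1896752 in the ASM294v2 coordinates of the count table) had 510 and 925 CPM in glucose-starved, 191 and 462 CPM in glucose-deficient and 142 and 190 CPM in glucose medium. Both glucose-starved libraries were above those of the other media, the lower of them by little over the higher glucose-deficient library, and the first glucose-deficient library, from batch A, lay close to glucose. The log2 fold change of *sdh2* was 1.49 (SE 0.30, adjusted p = 0.00102) in glucose-starved and 0.60 (SE 0.29, adjusted p = 0.177) in glucose-deficient medium, and the direct difference between those media was 0.90 (SE 0.29, adjusted p = 0.0197). *sdh1* had 758 and 1233 CPM in glucose-starved, 567 and 1053 CPM in glucose-deficient and 341 and 361 CPM in glucose medium. It rose in both, with log2 fold changes of 1.04 (SE 0.22, adjusted p = 0.00129) and 0.91 (SE 0.21, adjusted p = 0.0144). *sdh3* had 445 and 656 CPM in glucose-starved, 199 and 462 CPM in glucose-deficient and 175 and 265 CPM in glucose medium. It rose in glucose-starved medium by a log2 fold change of 0.74 (SE 0.26, adjusted p = 0.0250), whereas its glucose-deficient libraries overlapped glucose and its log2 fold change of 0.39 did not pass the test. The other membrane anchor gene *sdh4*, unlisted and named *tim18* in RefSeq, had 98.3 and 182 CPM in glucose-starved and 88.3 and 107 CPM in glucose medium, and a fitted log2 fold change of -0.08 (adjusted p = 0.835).

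Complex III hands electrons to cytochrome c through the Rieske iron-sulfur protein Rip1 and cytochrome c1 (Cyt1). Of its 8 genes, 7 rose in each medium, and *qcr8*, a small subunit gene, passed the test in neither. *rip1* (SPBC16H5.06, chromosome II, 2288882 to 2290179) had 848 and 1172 CPM in glucose-starved, 459 and 812 CPM in glucose-deficient and 204 and 285 CPM in glucose medium. It rose 3.15-fold in glucose-starved medium (log2 fold change 1.66, SE 0.15, adjusted p = 3.29e-06) and 2.31-fold in glucose-deficient medium (1.21, SE 0.15, adjusted p = 0.000524), and none of these groups overlapped glucose. *cyt1* was at 278 and 438 CPM in glucose-starved, 427 and 656 CPM in glucose-deficient and 207 and 236 CPM in glucose medium. It rose more in glucose-deficient medium (1.04, SE 0.13, adjusted p = 0.000746) than in glucose-starved medium (0.33, SE 0.13, adjusted p = 0.0498), and the difference between those media was itself past the test (-0.71, SE 0.13, adjusted p = 0.000780). The glucose-starved call of *cyt1* is marginal: it held in 5 of 26 alternative analyses. *qcr8* had 196 and 529 CPM in glucose-starved, 240 and 295 CPM in glucose-deficient and 170 and 232 CPM in glucose medium, so that the spread between the glucose-starved libraries exceeded its change. The core protein genes *qcr1* and *qcr2* and the small subunit genes *qcr7*, *qcr9* and *qcr10* had log2 fold changes between 0.53 and 0.96 in glucose-starved and between 0.59 and 0.95 in glucose-deficient medium.

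Cytochrome c, which carries electrons from complex III to complex IV, is encoded by *cyc1* (SPCC191.07, chromosome III, 1714660 to 1715798). It had 2485 and 2769 CPM in glucose-starved, 791 and 1542 CPM in glucose-deficient and 439 and 642 CPM in glucose medium. The 3 media did not overlap. *cyc1* rose 3.48-fold in glucose-starved medium (log2 fold change 1.80, SE 0.23, adjusted p = 3.06e-05) and 2.02-fold in glucose-deficient medium (1.02, SE 0.22, adjusted p = 0.00985), and it was higher in glucose-starved than in glucose-deficient medium by 0.78 (SE 0.22, adjusted p = 0.00893). Within batch B the starved over glucose log2 difference was 1.95.

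**Figure D3:**
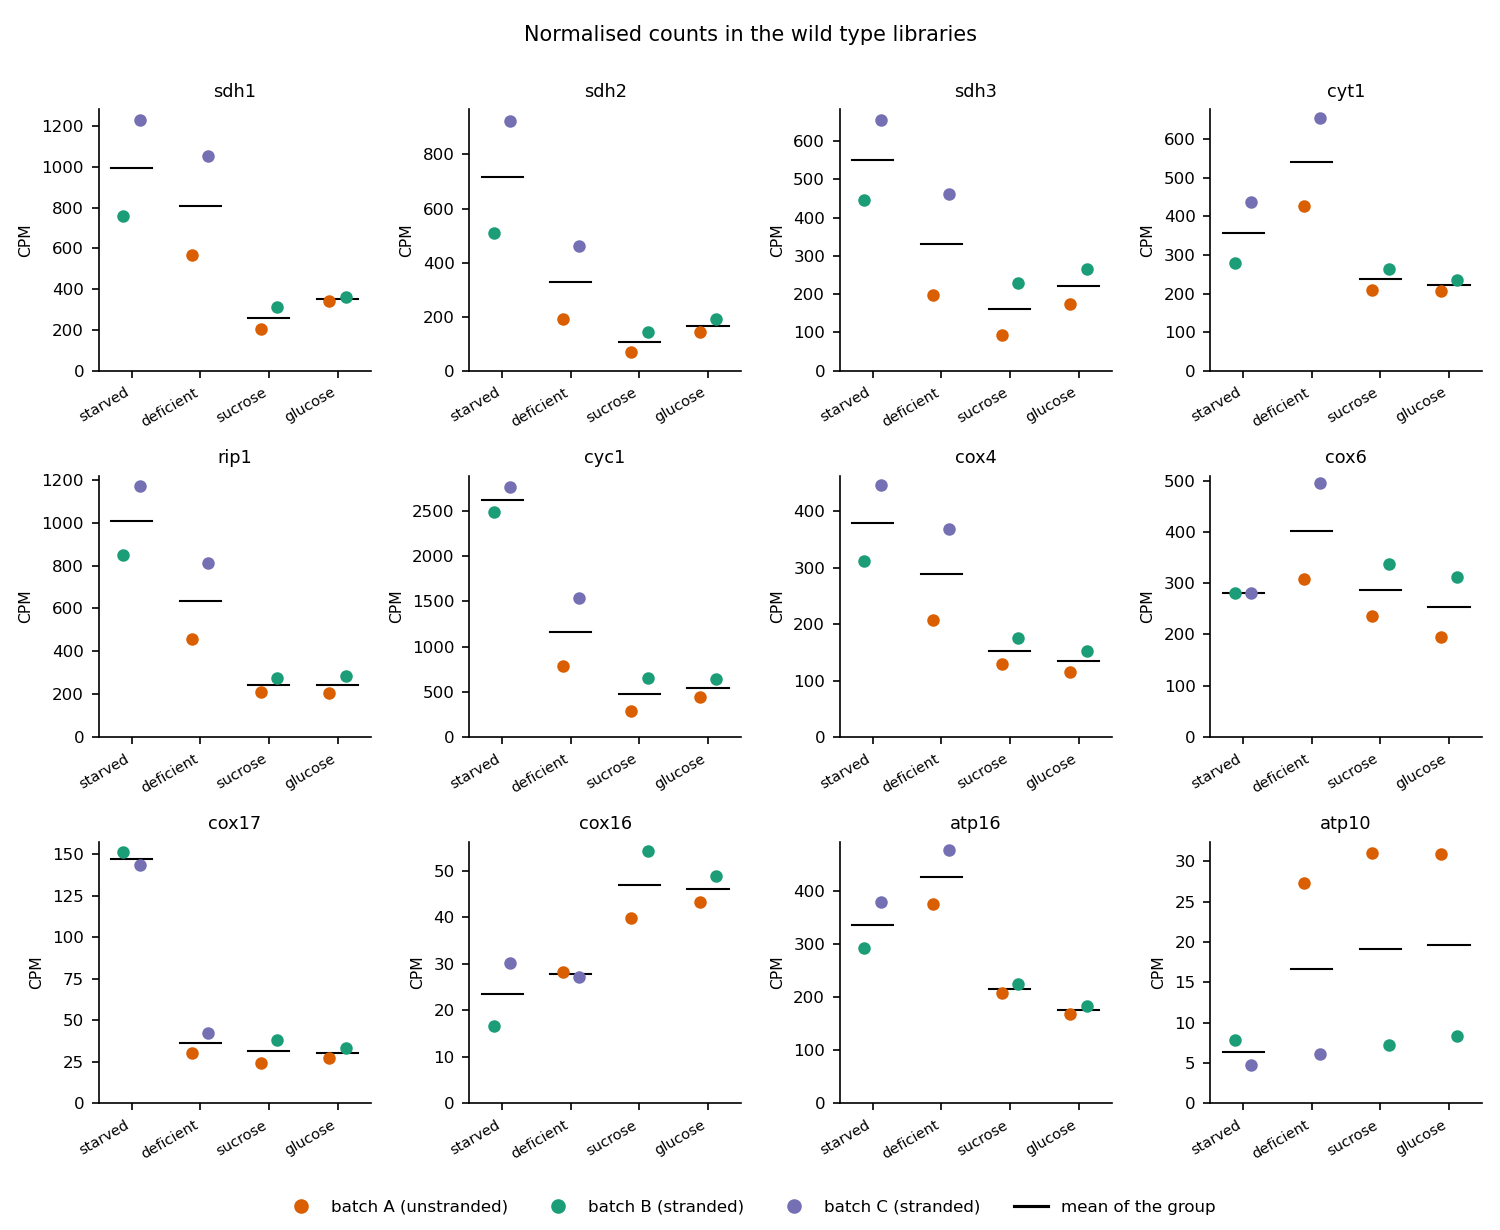
CPM of 12 genes in the 8 wild type libraries, each panel with its own axis from 0. Points are libraries coloured by batch and lines are group means. *cyc1*, *rip1* and *sdh2* are highest in glucose-starved medium, *cyt1*, *cox6* and *atp16* in glucose-deficient medium, *cox17* is high in glucose-starved medium alone, *cox16* is lower in both glucose-poor media, and *atp10* follows the batch.

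Complex IV, cytochrome c oxidase, has nuclear subunits that surround a core encoded in the mitochondrion. Of 7 subunit genes, 4 rose in glucose-starved and 4 in glucose-deficient medium. *cox4* had 311 and 447 CPM in glucose-starved, 208 and 368 CPM in glucose-deficient and 116 and 153 CPM in glucose medium, and rose in both (log2 fold changes 1.17, SE 0.16, adjusted p = 7.50e-05, and 0.95, SE 0.16, adjusted p = 0.00335). *cox5* had 481 and 610 CPM in glucose-starved, 483 and 756 CPM in glucose-deficient and 269 and 325 CPM in glucose medium, and rose by 0.62 and 1.02 on the log2 scale. *cox6* differed between the glucose-poor media. It had 282 and 281 CPM in glucose-starved, 308 and 495 CPM in glucose-deficient and 195 and 312 CPM in glucose medium, with log2 fold changes of -0.12 (SE 0.13, adjusted p = 0.425) in glucose-starved and 0.69 (SE 0.13, adjusted p = 0.00520) in glucose-deficient medium. Between them *cox6* was lower in glucose-starved medium by a log2 difference of -0.82 (SE 0.13, adjusted p = 0.000235). *cox13* had 144 and 316 CPM in glucose-starved, 161 and 189 CPM in glucose-deficient and 109 and 130 CPM in glucose medium and rose in glucose-starved medium (0.67, SE 0.26, adjusted p = 0.0378), while its value in glucose-deficient medium was 0.42 (adjusted p = 0.265) and the difference between those media did not pass the test (0.25, adjusted p = 0.407). *cox8* and *cox9* passed the test in neither medium, with log2 fold changes of 0.62 and 0.06 in glucose-starved and 0.90 and 0.69 in glucose-deficient medium.

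In glucose-starved medium the assembly factors of complex IV moved furthest in either direction. Cox17, a copper chaperone in budding yeast, delivers copper for the oxidase, and *cox17* (SPBC26H8.14c, chromosome II, 3961855 to 3962537) had 151 and 143 CPM in glucose-starved, 30.3 and 42.7 CPM in glucose-deficient and 27.4 and 33.4 CPM in glucose medium. It rose 4.60-fold in glucose-starved medium (log2 fold change 2.20, SE 0.25, adjusted p = 1.32e-05), the largest fold of the 43 genes, while its glucose-deficient value of 0.48 (SE 0.24, adjusted p = 0.180) did not pass the test. The direct difference between those media was 1.72 (SE 0.24). *cox14*, whose budding yeast counterpart acts in the synthesis and assembly of the core subunit Cox1, showed the same order, with 99.7 and 154 CPM in glucose-starved, 34.9 and 40.0 CPM in glucose-deficient and 35.6 and 51.7 CPM in glucose medium, and a log2 fold change of 1.37 (SE 0.25, adjusted p = 0.000462) in glucose-starved medium. *cox16* (SPAC1486.08, chromosome I, 3207482 to 3209724) was the gene that fell. It had 16.6 and 30.2 CPM in glucose-starved, 28.3 and 27.2 CPM in glucose-deficient and 43.2 and 48.8 CPM in glucose medium, and log2 fold changes of -1.13 (SE 0.24, adjusted p = 0.00168) and -0.75 (SE 0.23, adjusted p = 0.0462). All 4 libraries of the glucose-poor media were below both glucose libraries. The feature overlaps an antisense RNA, and the glucose-deficient call of *cox16* held in 7 of 26 alternative analyses. *cox10*, for haem O synthase, had 33.9 and 42.9 CPM in glucose-starved, 35.6 and 59.5 CPM in glucose-deficient and 24.2 and 31.0 CPM in glucose medium and rose in glucose-deficient medium by 0.76 (SE 0.18, adjusted p = 0.0158).

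*cox1101* and *cox1102* carry the name of the Cox11 copper protein and are counted as assembly factors by that name. Their annotated genes in ASM294v3 are both 2337 bases long and differ at 3 bases (99.87% identity). Whether they encode more than Cox11 was not examined. Reads were counted at every place they map, so the copies cannot be told apart and their near-equal values are a property of the counting. *cox1101* had 72.8 and 87.5 CPM in glucose-starved, 76.8 and 95.9 CPM in glucose-deficient and 49.9 and 45.4 CPM in glucose medium. *cox1102* had 72.4 and 86.1 CPM, 76.6 and 95.9 CPM, and 49.5 and 45.8 CPM in the same media. Taken as 1 signal, the pair rose by a log2 fold change of 0.67 and 0.70 by the *cox1101* values (SE 0.11 for each, adjusted p = 0.000232 and 0.00195).

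The ATP synthase makes ATP at its F1 part, held by a stator to the membrane part. All 5 F1 genes rose in glucose-starved medium and 4 in glucose-deficient medium. *atp16*, the δ subunit gene, had 293 and 380 CPM in glucose-starved, 375 and 477 CPM in glucose-deficient and 168 and 184 CPM in glucose medium, and rose by 0.80 (SE 0.16, adjusted p = 0.000868) and 1.25 (SE 0.16, adjusted p = 0.000624) on the log2 scale. It was lower in glucose-starved than in glucose-deficient medium by a log2 difference of -0.45 (SE 0.15, adjusted p = 0.0271). *atp3*, the γ subunit gene, had 339 and 582 CPM in glucose-starved, 355 and 431 CPM in glucose-deficient and 183 and 194 CPM in glucose medium, with log2 fold changes of 1.12 and 0.96. *atp15*, the ε subunit gene, had 124 and 243 CPM in glucose-starved, 99.3 and 120 CPM in glucose-deficient and 80.9 and 122 CPM in glucose medium. Its glucose-starved value of 0.70 (SE 0.29, adjusted p = 0.0492) held in 5 of 26 alternative analyses and its glucose-deficient value was 0.15.

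Of the 8 stator and membrane genes, 4 rose in glucose-starved and 5 in glucose-deficient medium. *atp5*, for the oligomycin-sensitivity protein of the stator, had 612 and 835 CPM in glucose-starved, 357 and 618 CPM in glucose-deficient and 202 and 339 CPM in glucose medium, and rose by 1.14 (SE 0.19, adjusted p = 0.000229) and 0.86 (SE 0.18, adjusted p = 0.0101). *atp4*, the subunit b gene, had 555 and 739 CPM in glucose-starved, 499 and 832 CPM in glucose-deficient and 261 and 432 CPM in glucose medium, and rose by 0.64 and 0.93. *atp17*, *atp18*, *atp19* and *atp20* are small membrane subunit genes. *atp17* had 418 and 433 CPM in glucose-starved, 292 and 491 CPM in glucose-deficient and 218 and 404 CPM in glucose medium, the lowest glucose-starved fold change of the stator and membrane genes (0.19, adjusted p = 0.254). *atp19* had 123 and 200 CPM in glucose-starved, 68.4 and 83.5 CPM in glucose-deficient and 52.5 and 106 CPM in glucose medium, and rose in glucose-starved medium (0.82, SE 0.26, adjusted p = 0.0167). *atp7* and *atp20* passed the test in neither medium.

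The ATP synthase assembly factors gave 1 call. *atp25*, whose budding yeast counterpart acts on the mRNA of the membrane rotor subunit, had 143 and 116 CPM in glucose-starved, 158 and 77.0 CPM in glucose-deficient and 152 and 81.6 CPM in glucose medium, the higher value of each of the last 2 pairs being the batch A library. It rose in glucose-starved medium by a fitted log2 fold change of 0.65 (SE 0.13, adjusted p = 0.00111). *atp10* had 7.84 and 4.82 CPM in glucose-starved, 27.4 and 6.08 CPM in glucose-deficient and 30.9 and 8.37 CPM in glucose medium. In all 16 libraries *atp10* was between 27.4 and 32.3 CPM in the unstranded and between 4.82 and 8.37 CPM in the stranded libraries, so its level separated the library types, and its fitted values did not pass the test in either medium. *atp11* and *atp12*, for chaperones of the F1 β and α subunits in budding yeast, had 43.0 and 30.5 CPM and 16.4 and 17.2 CPM in glucose-starved medium, against 63.8 and 26.8 CPM and 30.7 and 17.2 CPM in glucose, and were not called.

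Glucose-starved and glucose-deficient medium differ by 0.1% glucose, and were also set against each other. Of the 43 genes, 7 were higher and 6 lower in glucose-starved medium, with a median log2 fold change of -0.05, against 29.4% of all features higher and 29% lower. Higher in glucose-starved medium were *cox17*, *cox14*, *sdh2*, *cyc1*, *atp19*, *atp25* and *rip1*. Lower in glucose-starved medium were *cox18*, *cox6*, *cyt1*, *cox9*, *cox10* and *atp16*. *cox18*, for an inserter of the core subunit Cox2 in budding yeast, had 15.3 and 22.9 CPM in glucose-starved against 28.8 and 35.1 CPM in glucose-deficient medium (-0.83, SE 0.18, adjusted p = 0.00176). The 2 libraries of each medium overlap for 33 of the 43 genes, and the share of all features that overlap was not counted. The result depends on which glucose-starved library is used. The median log2 fold change was -0.26 without replicate 2 and 0.11 without replicate 1, against -0.01 and 0.003 over all features. Without the second glucose-deficient library it was -0.03, against 0.02 over all features. With library totals 7 were higher and 12 lower, and with DESeq2 size factors 8 were higher and 3 lower. The shares of all features given above are those of the main fit.

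Sucrose is split outside the cell to glucose and fructose. Between wild type cells in sucrose and in glucose, 0 of the 43 genes passed the test (edgeR), as did 0 with DESeq2, and 4 had an unadjusted p below 0.05. Of all features 0.0149% were higher and 0% lower by the adjusted p, and their share at the unadjusted threshold is not given here. The median log2 fold change was 0.13, with 33 of 43 genes above 0. The complex II genes had the lowest values of the list. *sdh2* had 69.6 and 145 CPM in sucrose, against 142 and 190 CPM in glucose (log2 fold change -0.70, SE 0.28). *sdh1* had 205 and 313 CPM in sucrose, against 341 and 361 CPM in glucose (-0.47, SE 0.20), and *sdh3* had 93.4 and 229 CPM in sucrose, against 175 and 265 CPM in glucose (-0.56, SE 0.24). The adjusted p of each was 1.0, so none is a call. The *scr1*- mutants, measured in other libraries, gave -0.74 (SE 0.20) for *sdh2*, -0.47 (SE 0.14) for *sdh1* and -0.48 (SE 0.17) for *sdh3*, also with adjusted p of 1.0. In 5 of 5 comparisons within a batch (wild type in A and B, mutants in A, B and C) the 3 genes were lower in sucrose, by log2 differences that reached -1.23 in batch A and were between -0.20 and -0.59 in batches B and C. The 3 genes were picked after their sucrose values were seen, so this tally is a description and not independent support. Of all 43 genes, 11 and 9 were lower in sucrose in wild type batches A and B. In mutant batches A, B and C, 17, 31 and 16 of the 43 were lower. *cyc1* had 290 and 656 CPM in sucrose, against 439 and 642 CPM in glucose in wild type cells (-0.29). The unlisted *sdh4* had 44.5 and 85.2 CPM in sucrose, against 88.3 and 107 CPM in glucose (-0.66, adjusted p = 1.0). In the mutants 0 genes passed the test between sucrose and glucose, against 0% of all features, and with DESeq2 also 0. At an unadjusted p below 0.05 there were 3, with no share of all features beside them.

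**Figure D4:**
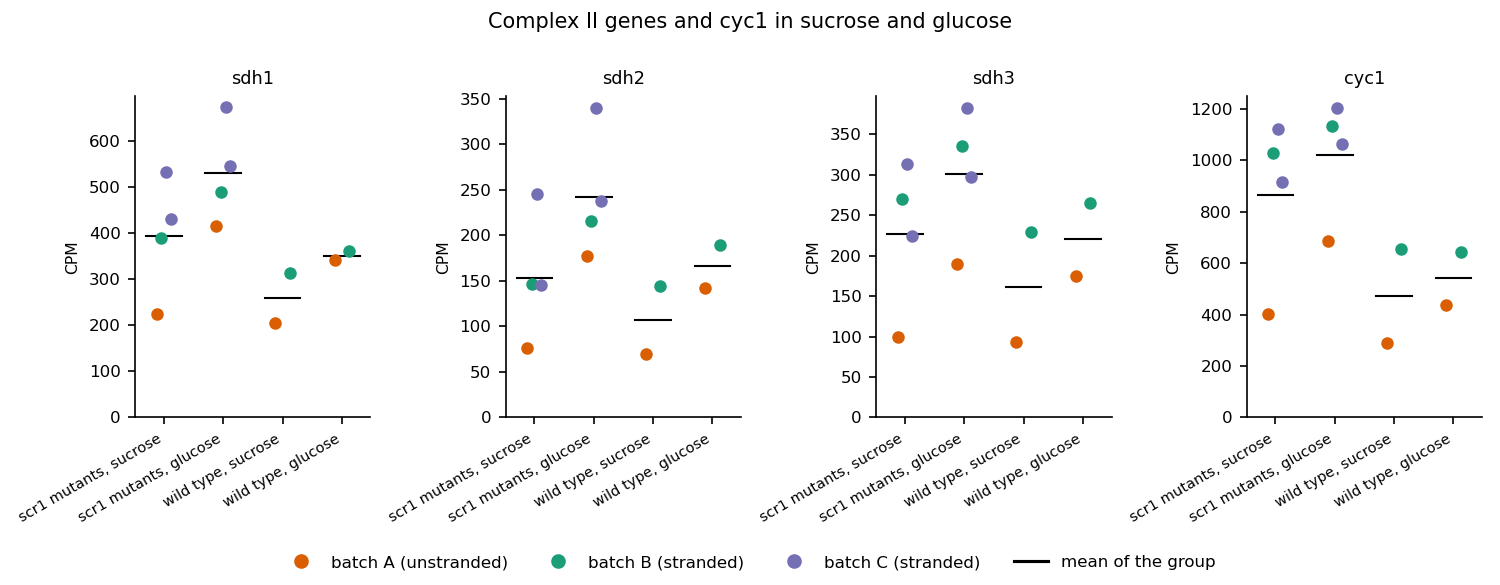
CPM of *sdh1*, *sdh2*, *sdh3* and *cyc1* in the 4 *scr1*- mutant libraries and the 2 wild type libraries of each medium. Points are libraries coloured by batch and lines are group means. The complex II genes have lower means in sucrose than in glucose in both strains, with overlap between libraries of different batches, and *cyc1* has higher means in the mutants (1021 CPM in glucose and 867 CPM in sucrose) than in wild type cells (541 CPM and 473 CPM).

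The last question was whether loss of Scr1 raises these genes while glucose or sucrose is present. In glucose, 0 of the 43 genes passed the test between *scr1*- mutants and wild type cells, against 1.9% of all features that rose and 0.822% that fell, and 10 had an unadjusted p below 0.05. In sucrose, 0 passed and 6 had an unadjusted p below 0.05, against 1.49% of all features that rose and 0.867% that fell. Fitted log2 fold changes lay between -0.40 and 0.64 in glucose, with a median of 0.14, and their median was 0.05 in sucrose. DESeq2 called 1 gene in each medium, *cyc1* (adjusted p = 0.0151 in glucose and 0.0167 in sucrose, DESeq2). The shares of all features at an unadjusted p below 0.05, or called by DESeq2, are not given here. The counts at those thresholds are therefore not read as an effect on these genes. *cyc1* had 687 and 1133 CPM in the disruption libraries and 1204 and 1062 CPM in the deletion libraries in glucose, against 439 and 642 CPM in wild type cells in glucose. All 4 mutant libraries were above both wild type libraries. The edgeR log2 fold change of *cyc1* was 0.64 (SE 0.19, adjusted p = 0.116), and within a batch it was 0.65 in batch A and 0.82 in batch B. In sucrose *cyc1* had 401 and 1028 CPM in the disruption and 1123 and 914 CPM in the deletion, against 290 and 656 CPM in wild type cells, groups that overlapped, with a log2 fold change of 0.63 (SE 0.19, adjusted p = 0.113). Because the deletion libraries were all made in batch C and the wild type libraries of these media in A and B, deletion and wild type could not be set side by side within a batch. With the deletion as the only mutant the median log2 fold change of the 43 genes was -0.04 in glucose and -0.07 in sucrose, and with the disruption as the only mutant it was 0.21 and 0.07, with 0 calls in each. With library totals it was -0.09 and -0.13, where all features had -0.23 and -0.20. The interaction of strain with medium was called for 0 of the 43 genes, with 0 at an unadjusted p below 0.05 and 0 with DESeq2, against 0.0149% of all features lower.

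**Figure D5:**
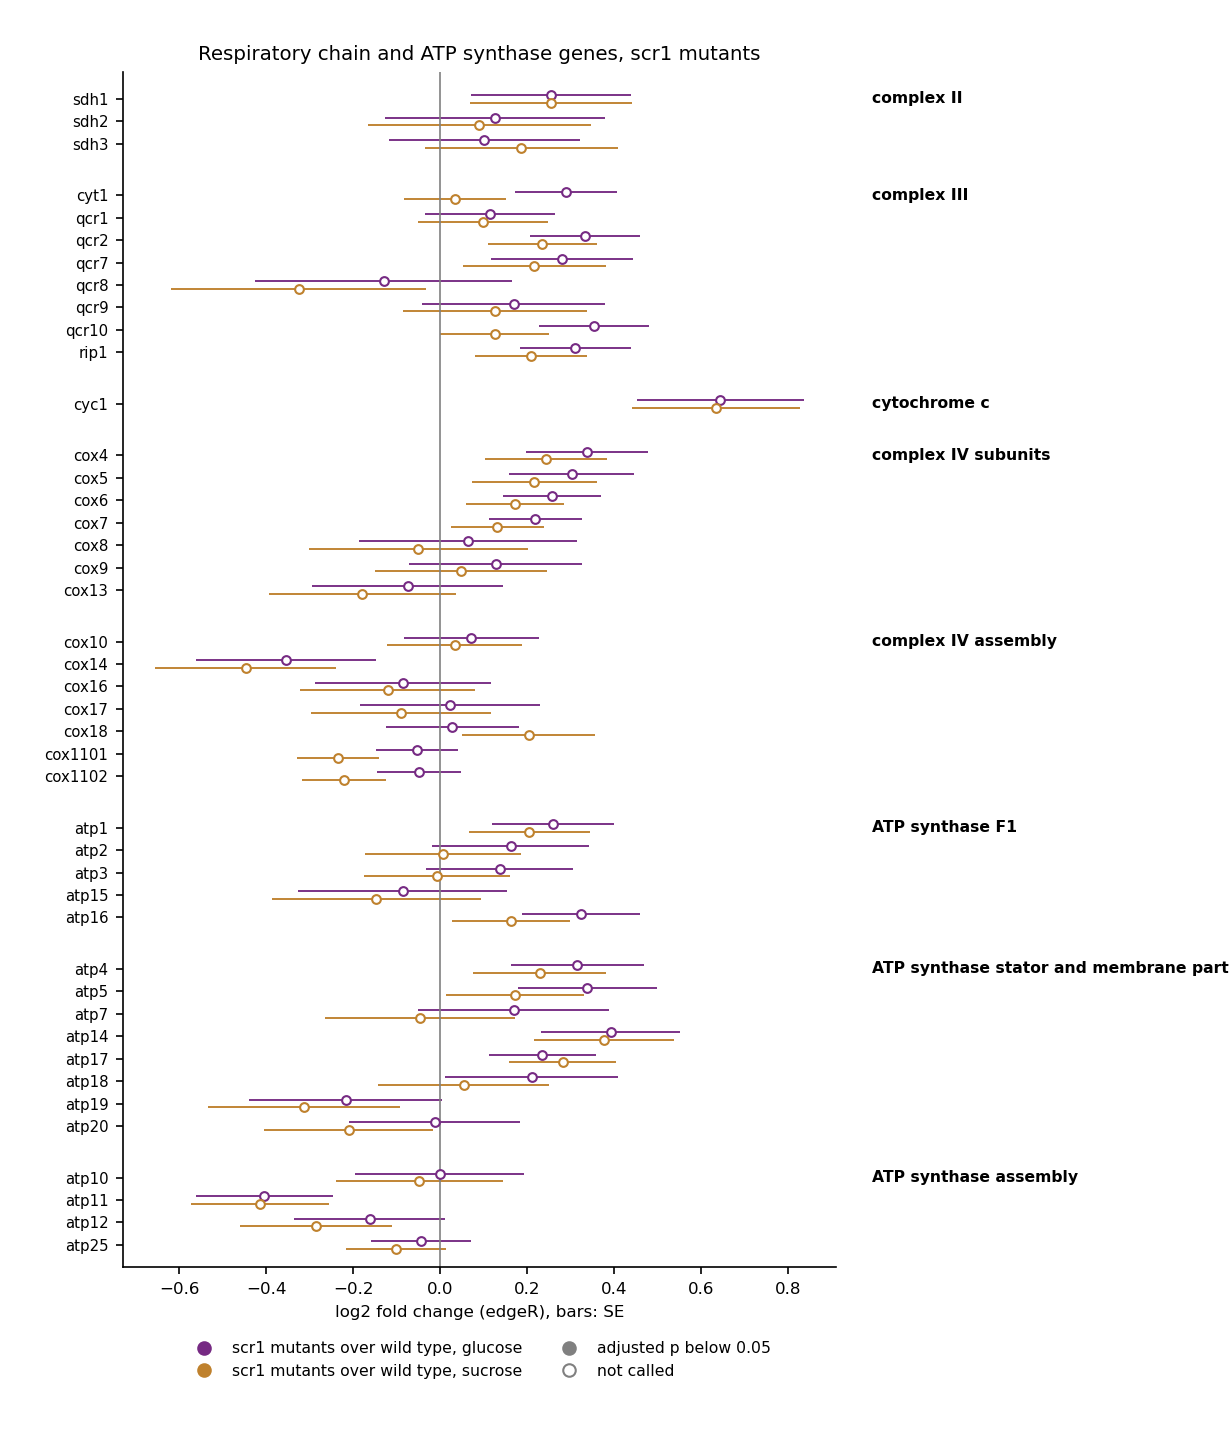
Log2 fold change of each of the 43 genes in *scr1*- mutants over wild type cells, in glucose (purple) and sucrose (brown), by role. Bars are standard errors of the edgeR fit, and open points did not pass the test. No point is filled, and *cyc1* lies furthest to the right in both media, at 0.64 and 0.63.

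Other genes around the pathway were described by list. Of 18 genes listed by name under electron entry and ubiquinone synthesis, 6 rose and 4 fell in glucose-starved medium and 5 rose and 0 fell in glucose-deficient medium. The list also holds *etr1* and *dld1*, whose place in either process was not checked, so these counts describe the list and not the pathway. *etr1* had 442 and 727 CPM in glucose-starved, against 46.8 and 37.7 CPM in glucose medium. Of all features 31.3% rose and 31.9% fell in the glucose-starved and 10.1% rose and 8.35% fell in the glucose-deficient medium. *gut2*, the mitochondrial glycerol-3-phosphate dehydrogenase that feeds electrons from glycerol, had 1554 and 190 CPM in glucose-starved, against 38.8 and 18.2 CPM in glucose medium (log2 fold change 5.27, SE 0.95, adjusted p = 0.000483). The glucose-starved libraries were both above glucose but far apart from each other. The NADH dehydrogenase gene SPBC947.15c (*nde1* in the study's tables) rose by 1.89 (SE 0.15) in glucose-starved and 1.28 (SE 0.15) in glucose-deficient medium. Of 29 assembly factors and haem synthesis genes, 12 rose and 9 fell in glucose-starved and 5 rose and 1 fell in glucose-deficient medium, to be read against the same shares. Of 3 regulators and partners of the ATP synthase, 2 rose in both media: *anc1*, the ADP/ATP carrier, averaged 3296 ± 1038 CPM in glucose-starved, against 467 ± 68.4 CPM in glucose medium (SD, n = 2 each, log2 fold change 2.60, SE 0.17), and *inh1*, the inhibitor of reverse ATPase activity, averaged 353 ± 165 CPM in glucose-starved, against 45.4 ± 4.73 CPM in glucose medium (2.62, SE 0.23). *anc1* also rose in the *scr1*- mutants in glucose (0.93), as did 2 genes of the electron entry list, against 1.9% of all features that rose in that comparison. Values of these lists for the mutants in sucrose are not given here.

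Among the HAP complex genes, *php3* rose in glucose-starved medium, with 215 and 244 CPM, against 37.0 and 68.4 CPM in glucose (2.09, SE 0.22), and *php4* by 0.96. *php2* was called in glucose-deficient medium (1.53, SE 0.35), with 230 CPM in the batch A and 37.7 CPM in the batch C library, against 47.5 CPM in the batch A and 24.7 CPM in the batch B library of glucose. The second *php2* library thus lay within the glucose values. The *php2* feature overlaps a gene on the opposite strand, and batch A was unstranded. What sets the 230 CPM apart was not tested. The mitochondrially encoded genes of the same complexes (*cox1*, *cox2*, *cox3*, *cob1*, *atp6*, *atp8* and *atp9*) had between 0 and 31 counts in a library, too few to compare, and 0 of the 6 that passed the filter were called against glucose in either glucose-poor medium.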

How the data were processed

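RNA of 16 *S. pombe* cultures was sequenced. Per the labels and the study's methods, the authors trimmed reads with cutadapt 1.9.1, aligned them with TopHat2 2.1.1 to ASM294v2 and counted them with featureCounts 1.5.2, with multi-mapping and multi-feature reads counted at each of their places. The deposited values are raw counts per feature, with no normalization. Library totals ranged from 14305848 to 18607823 counts, and a floor of 3 counts was 0.161 to 0.21 CPM.

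The counts of all features were analysed with edgeR 4.0.16 in R 4.3.3: TMM scaling, a filter with a minimum count of 10 (6691 features and all 43 members kept), and a quasi-likelihood test with 6 groups and a term for batch, with 8 residual degrees of freedom. P-values were adjusted by the Benjamini-Hochberg method over all features tested, and rose or fell means an adjusted p below 0.05. The SE of a log2 fold change was obtained from its size and the root of the quasi-likelihood F value. CPM are TMM-scaled. The procedure was also run on simulated counts with the same spread for all genes and no batch effect. That setting differs from these data, so the run does not bear on how the calls depend on batch or on single libraries.

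The 43 genes, the role groups and the other lists were chosen with earlier results of these data known. Values in every library were given for the highest and lowest member of each role group in each glucose-poor medium, *cyc1*, the *cox11* copies and members called elsewhere, and *cox14*, *cox18*, the complex II genes in sucrose and *sdh4* were added after their values were seen. Promoter stretches are from the RefSeq genome ASM294v3 and its own annotation. Other coordinates are those of the count table (ASM294v2). Alternatives were DESeq2 1.42.0, its size factors, library totals, no filter, no batch term, a replicate block, subsets of libraries, either mutant alone, the unlisted genes added, and leaving out each library. Peptide sequences were not used here.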

Additional observations from a re-analysis of the deposited data

Results flagged for a closer look

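In the pooled mutant groups of 4 libraries, 36 measures were looked at in each of 2 media (27 genes and the summed level of 8 roles and of all 43 genes), and in 14 of 72 cases the highest or lowest library lay apart from the other 3 by more than the 95% critical value of the Dixon gap test. Chance gives about 1 in 20. In every case the library was the first disruption library of its medium, which is the only unstranded one in its group. It was high for *atp10* (32.3 CPM in glucose and 28.9 CPM in sucrose), *atp11* (51.1 and 47.8 CPM), *atp25* (139 and 127 CPM) and the summed ATP synthase assembly factors (246.5 and 224.5 CPM). It was low for *cox4* (136 CPM), *rip1* (248.5 CPM), the summed complex III genes (2136 CPM) and the sum of all 43 genes (8459 CPM) in glucose, and for *cox6* (257 CPM) and the summed complex IV subunits (1105 CPM) in sucrose. The part of strandedness in these values was not tested.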

How the results depend on the processing

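Of the 30 calls in glucose-starved medium, 12 held in all 26 alternatives and 29 kept their direction, the exception being *cyt1* at -0.045 with library totals. Of the 26 calls in glucose-deficient medium 0 held in all, and 26 kept their direction. For glucose-starved against glucose the number called was 30, and 16 with library totals, 19 without a batch term, 19 with stranded libraries, 19 with wild type libraries alone, and 11 past a log2 change of 1. For glucose-deficient it was 26, and 6 without a batch term, 9 with stranded libraries, 11 with the disruption as the only mutant, 6 past a log2 change of 1 and 0 with wild type libraries alone, which leave 2 residual degrees of freedom. For glucose-starved against glucose-deficient it was 13, and 3 without a batch term, 8 with stranded libraries, 6 with wild type libraries alone, 20 with the unlisted genes added and 2 past a log2 change of 1. *qcr8*, not called there, ran between -0.84 without the second and 0.73 without the first glucose-starved library. DESeq2 called 1 gene for the mutants in glucose and 1 in sucrose. Counts from these alternatives, and from leaving out libraries, are given without the share of all features in the same fit. They show only how far each count moved.

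Leaving out 1 library gave 20 to 37 calls for glucose-starved and 11 to 32 for glucose-deficient against glucose (11 without the first and 12 without the second glucose library, 14 without the second glucose-deficient library), 6 to 23 for glucose-starved against glucose-deficient, 0 to 2 for the mutants in glucose and 0 to 1 in sucrose (*atp11* and *qcr10*, without either glucose-starved library), and 0 to 0 for the other 3 comparisons. Replicate numbers coincide with batches for 4 of the 8 groups. Deviations from the group means correlated between same-numbered libraries at -0.088 to 0.972, with 0.921 or more among those groups. A shared batch and a shared pre-culture cannot be told apart by these correlations. With a replicate block and no batch term, 29 genes were called in glucose-starved and 15 in glucose-deficient medium and 6 between them, and 0 in the comparisons with sucrose or the mutants. Library totals moved the median of all features to -0.39 in glucose-starved and -0.29 in glucose-deficient medium. The medians of the 43 genes were then 0.27 and 0.43. The cause of these differences was not tested. With 2 libraries a group, single libraries decide many calls. All 43 genes passed the count filter, while the mitochondrially encoded genes were too shallow to compare.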
